A study of Mus musculus with 51 samples.

Results

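The genes described here code for the core and regulatory proteins of pre-mRNA splicing that belong to 4 named groups: the SR proteins (Srsf genes), the heterogeneous nuclear ribonucleoproteins (Hnrnp genes), the SF3a and SF3b subunits (Sf3a and Sf3b genes) and the small nuclear ribonucleoprotein genes (Snrp genes, with the imprinted Snrpn left out). The 4 groups were chosen with earlier results of these data known, and within them the genes were taken by symbol alone. Of the 18193 genes with a probe set of their own, 46 met the rule: 10 SR genes, 19 hnRNP genes, 9 SF3 genes and 8 snRNP genes. Hnrnpa3, Snrpa, Snrpd1, Snrpd2 and the pseudogene Hnrnpa1l2-ps2 were represented on the array by probe sets shared with other symbols and have no value of their own. The 46 genes had 138 probe sets in all, 11 genes having 1 and 35 having several, and each gene was read from the probe set with the largest standard deviation over the 51 arrays.

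Each array was hybridised with RNA of 1 oocyte or 1 preimplantation embryo of the mouse. Metaphase II (MII) oocytes were of the B6D2F1 strain (n = 3), and embryos from in vitro fertilisation (IVF) were labelled B6D2F1×B6D2F1 (n = 3 at each stage). Clones were made by nuclear transfer, with a Sertoli cell of the B6CBF1 strain, a somatic support cell of the testis, as the donor and a B6D2F1 oocyte as the recipient (n = 5 at each stage), so the donor strain was part of the difference between clones and IVF embryos. Embryos of both kinds were cultured in KSOM medium and collected at 16, 32, 48, 62, 72 and 84 hours after sperm addition or activation, for the 1-cell, 2-cell, 4-cell, 8-cell, morula and blastocyst stages. The series compares gene expression of cloned and fertilised embryos over these stages.

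Values are deposited log2 values, centred for each probe set, so that a value is a distance from that probe set's own baseline and 1 unit is a 2-fold difference. They give no absolute level, and the levels of different genes cannot be set side by side. A gene is called where limma's adjusted p (Benjamini and Hochberg, over all 18193 genes) was under 0.05, and p-values measure the spread between single embryos. Whole embryos were measured after scaling of the arrays, so a lower value from fewer cells that hold a transcript and one from less transcript in each cell cannot be told apart.

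Introns are removed from new transcripts by the spliceosome, which is built from small nuclear RNAs wrapped in a ring of Sm proteins and from many further proteins. The U1 particle binds the start of the intron, and the U2 particle, through SF3a and SF3b, binds the branch point near its end. SR proteins bind exons and mostly favour their inclusion, while hnRNP proteins coat new transcripts and often compete with SR proteins. In the mouse, the oocyte is loaded with stored transcripts that are degraded after fertilisation, and the embryo's own genome is switched on mainly at the 2-cell stage.

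Oocyte markers averaged 5.58 to 5.80 in the MII oocytes and -2.62 to -2.58 in IVF blastocysts, and blastocyst markers averaged -2.23 to -1.71 and 4.70 to 4.92, so the stages had the markers of their labels. The donor nuclei were male, and the Y-linked gene Eif2s3y lay between -2.70 and 1.23 in the other 8-cell clones but at -5.25 in 8-cell clone 4, near the -5.42 to -5.37 of the oocytes. That embryo goes against its label, and the main 8-cell counts, the steps from and to the 8-cell clones and their differences are given with and without it. The IVF embryos were of both sexes. Eif2s3y read 0.53, -5.48 and -5.38 at the 4-cell stage, -5.41, -5.50 and 2.20 at the 8-cell stage, 1.07, -5.49 and 1.77 in morulae and -5.52, 2.24 and 2.06 in blastocysts. Sex was therefore part of the difference between clones and IVF embryos, and its part was not tested. The spiked-in hybridisation controls of clones did not overlap those of IVF embryos at the 1-cell (-1.02 to 0.50 against 0.53 to 0.79), 2-cell (0.57 to 1.22 against -0.73 to -0.23), 4-cell (0.69 to 1.19 against -0.51 to -0.13) and 8-cell stages (-0.034 to 0.96 against -0.44 to -0.24). The groups and these controls therefore cannot be told apart there. Between stages the controls did not overlap from MII oocytes (-0.80 to -0.47) to IVF 1-cell embryos. Nor did they from 1-cell to 2-cell embryos of both kinds, or from IVF 8-cell embryos to IVF morulae (-0.040 to 0.23). From morula to blastocyst they stood apart in IVF embryos (blastocysts -1.25 to -0.70) and in clones (-0.097 to 0.98 against -1.25 to -1.07). Their part in these steps was not tested. Of the 17 Sertoli cell markers measured, 0, 0, 1, 1, 1 and 1 were called at the 6 stages in order, and of the 14 cumulus cell markers 1 was called, at the 8-cell stage. Of all genes, 6.31%, 2.37%, 2.26%, 6.62%, 0.165% and 6.18% were called at these stages. The mean of the Sertoli cell markers was higher in clones without overlap at the 1-cell stage (-0.44 to -0.14 against -0.56 to -0.46). The same held in morulae (0.35 to 0.83 against -0.17 to -0.093) and blastocysts (0.32 to 0.71 against -0.18 to 0.13). The part of these markers in the results was not tested.

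Over the 7 groups from the MII oocyte to the IVF blastocyst, the group means of the splicing genes spanned several log2 units. The distance between a gene's highest and lowest group mean had a median of 3.28 log2 units and ran from 0.254 for Srsf12 to 8.30 for Snrpb, reaching at least 2 in 40 genes and at least 4 in 16. The choice of the probe set with the largest standard deviation favours wide ranges, and more so in genes with several probe sets, which were 35 of these 46 and 9010 of all 18193. Of the 46 genes, 31 had a standard deviation above the median of all genes. The same choice bears on every share of called genes set against all genes here, and its part was not tested. The group mean was lowest at the IVF 1-cell stage in 18 genes and in the MII oocyte in 11. It was highest in the MII oocyte in 11, in the blastocyst in 10, and at the 4-cell stage in 8. In the clones the 1-cell stage held the lowest mean of 14 genes and the 2-cell stage that of 12, where 4 genes were lowest among the IVF embryos. These clone counts were 14 and 13 without 8-cell clone 4.

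**Figure D1:**
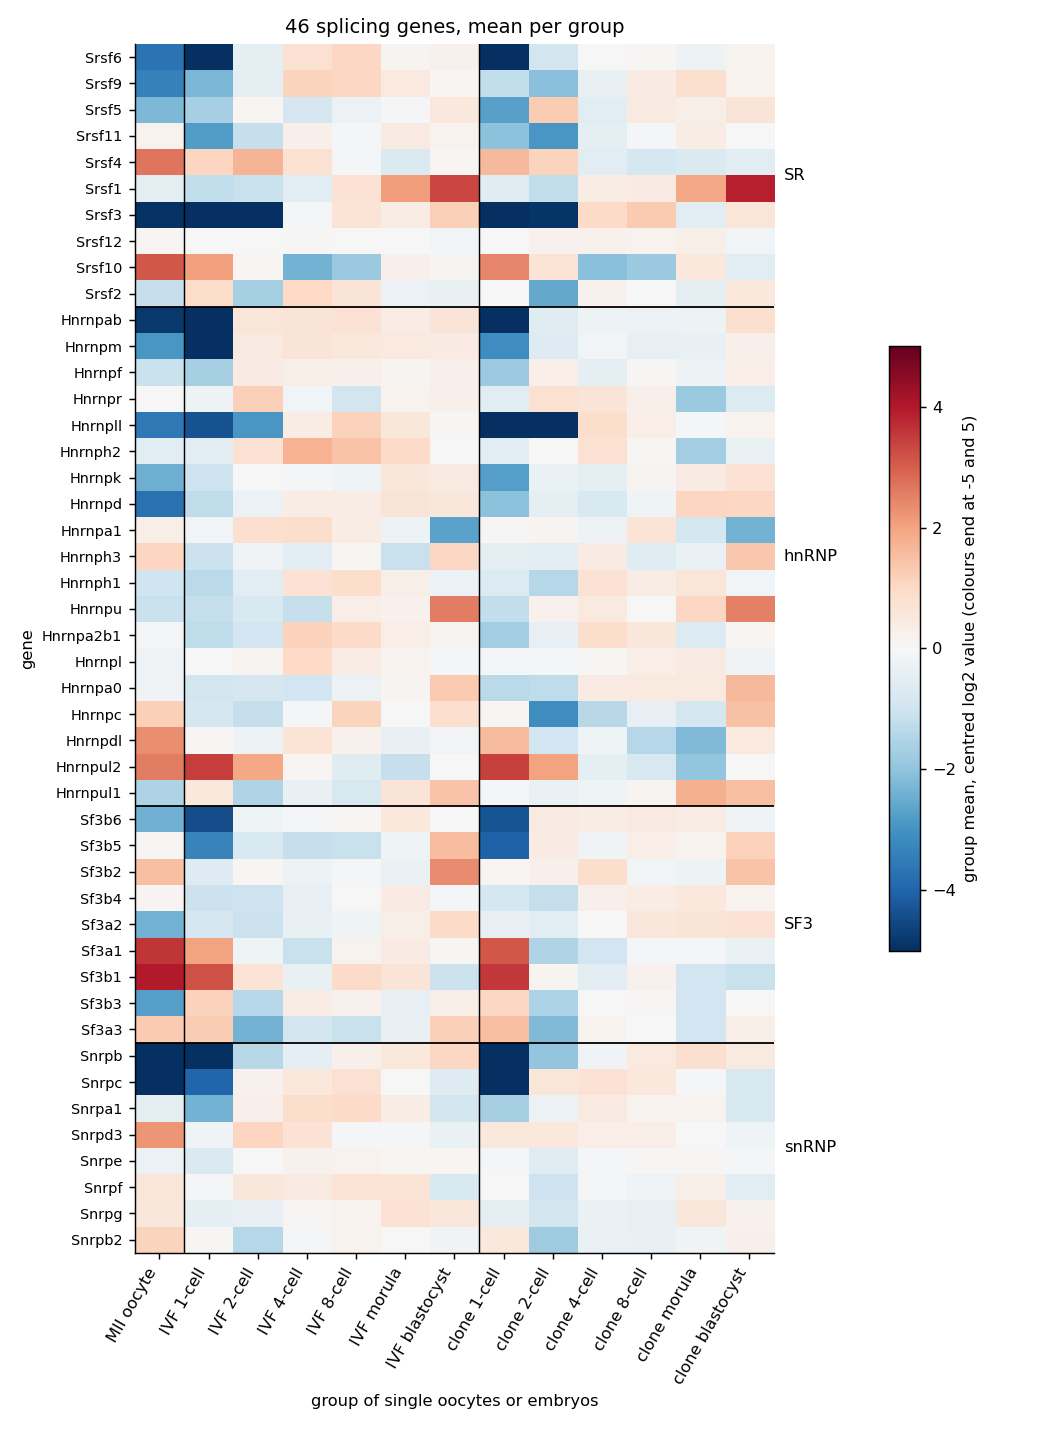
Group means (centred log2 values, colour scale from -5 to 5) of the 46 splicing genes in MII oocytes (n = 3), IVF embryos (n = 3 at each stage) and clones (n = 5 at each stage). Genes are grouped by family and ordered by their IVF 1-cell to 2-cell difference, and the genes at the top of each block, such as Srsf6, Hnrnpab and Snrpb, are low up to the 1-cell stage and much higher from the 2-cell stage on.

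From the MII oocyte to the IVF 1-cell embryo, 28 of the 46 genes were called (60.9%, against 30.6% of all genes). Of these, 9 rose (14.3% of all genes rose) and 19 fell (16.3% of all genes fell). By family, 2 SR genes rose and 3 fell, 4 hnRNP genes rose and 5 fell, 2 SF3 genes rose and 5 fell, and 1 snRNP gene rose and 6 fell. The SF3b subunit gene Sf3b3 read -3.13, -2.86 and -2.32 in the oocytes and 1.31, 1.18 and 0.99 in the 1-cell embryos, a rise of 3.93 ± 0.29 (SE, adjusted p = 4.44e-08). Hnrnpd, whose product AUF1 binds AU-rich elements of mRNAs, read -3.20, -3.68 and -4.26 and then -1.47, -1.06 and -1.27, a rise of 2.45 ± 0.18 (SE, adjusted p = 5.03e-08). In both genes every embryo lay above every oocyte. Hnrnpul1 rose by 2.06 ± 0.28 (SE, adjusted p = 2.57e-05), and Srsf2, the SR protein also known as SC35, rose by 2.05 ± 0.32 (SE, adjusted p = 9.74e-05).

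Among the genes that fell at this step, Sf3b5, a small SF3b subunit, read 0.44, 0.0 and -0.26 in oocytes and -3.63, -3.16 and -3.21 in 1-cell embryos, and it fell by 3.39 ± 0.31 (SE, adjusted p = 3.94e-07). Srsf11 fell by 2.95 ± 0.51 (SE, adjusted p = 0.000281), Srsf6 fell by 2.75 ± 0.33 (SE, adjusted p = 7.46e-06), and the Sm ring gene Snrpd3 fell by 2.39 ± 0.24 (SE, adjusted p = 1.06e-06). The clones shared the 3 oocytes as their starting point. In clones 19 genes were called between oocyte and 1-cell stage (41.3%, against 23.3% of all genes), 7 of them higher (all genes, 11.8%) and 12 lower (all genes, 11.6%). Sf3b3 rose by 3.80, Srsf9 by 2.16 and Sf3a2 by 1.96, while Sf3b5 fell by 4.11, Srsf11 by 2.23 and Srsf6 by 2.07. Within the 1-cell clones, Sf3a2 read -1.12, -0.85, -0.80, 0.31 and 0.46 and Srsf9 read -2.83, -1.47, -1.27, -0.44 and -0.062 in clones 1 to 5. The hybridisation controls of the first 3 clones and of the last 2 stood apart, at -1.02 to -0.71 and 0.35 to 0.50. Quantile normalization reduced the calls at this step to 10 in IVF embryos (4 higher) and 4 in clones (1 higher). The shares of all genes called under quantile normalization are not given for the steps. Whether the splicing genes lost more calls than all genes therefore cannot be read from such counts.

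In the values as deposited the splicing genes, like all genes, had the most calls between the 1-cell and the 2-cell stage, in IVF embryos and in clones. In IVF embryos 30 of the 46 splicing genes were called (65.2%, against 35.9% of all genes): 21 rose (45.7%, against 17.2% of all genes) and 9 fell (19.6%, against 18.7%). The median over the 46 genes was 0.67, against -0.013 over all genes. The count of rises was 4 of 10 in the SR genes, 9 of 19 in the hnRNP genes, 2 of 9 in the SF3 genes and 6 of 8 in the snRNP genes, and the counts of falls were 2, 2, 4 and 1. Under quantile normalization 20 genes were called, 12 of them higher, fewer than the 22 of the IVF 2-cell to 4-cell step, and both clone steps then had 25 calls. In the mean of the probe sets 28 were called, against 29 from the oocyte to the IVF 1-cell embryo.

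Snrpb, which encodes the SmB protein of the Sm ring, read -7.27, -7.29 and -7.27 in the oocytes, -6.84, -7.31 and -7.29 in the IVF 1-cell embryos and -1.84, -1.13 and -1.22 in the 2-cell embryos. Its rise at the 2-cell stage was 5.75 ± 0.19 (SE, adjusted p = 2.86e-12). The values of oocytes and 1-cell embryos lay close together at the low end of its range, and no 2-cell embryo came near them. Detection calls were not used here, so whether such low values lay above background was not judged. Snrpc, a subunit of the U1 particle, read -3.75, -3.85 and -4.27 at the 1-cell and -0.17, 0.58 and 0.21 at the 2-cell stage, a rise of 4.16 ± 0.19 (SE, adjusted p = 7.27e-11). Snrpa1, which encodes the U2 A′ protein, rose by 2.64 ± 0.24 (SE, adjusted p = 1.92e-07), and the Sm ring genes Snrpd3, Snrpe and Snrpf rose by 1.26, 0.72 and 0.62. The U2 B″ gene Snrpb2 was the snRNP gene that fell, by 1.48 ± 0.17 (SE, adjusted p = 2.71e-06).

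Of the SR genes, Srsf6 read -6.38, -6.48 and -6.49 in the IVF 1-cell embryos and -1.59, 0.03 and 0.18 in the 2-cell embryos. It rose by 5.99 ± 0.33 (SE, adjusted p = 7.72e-10), without overlap. Srsf9, Srsf5 and Srsf11 rose by 1.80, 1.75 and 1.64. In the probe set used Srsf2 went the other way, from 0.75, 1.01 and 0.96 to -1.97, -0.66 and -2.37, and fell by 2.57 ± 0.32 (SE, adjusted p = 6.82e-06). In group means its further probe sets went from 1.438 to 0.551, from 0.482 to 0.998 and from -0.029 to -0.047.

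Among the hnRNP genes, Hnrnpab, which encodes a protein of the A/B class, read -4.98, -5.56 and -5.77 and then 0.70, 0.24 and 0.83. The rise was 6.03 ± 0.31 (SE, adjusted p = 4.22e-10). Hnrnpm, a splicing regulator that binds GU-rich sequence, read -4.09, -5.45 and -5.49 and then 0.43, 0.29 and 0.67, a rise of 5.47 ± 0.34 (SE, adjusted p = 2.73e-09). In both genes the 1-cell and 2-cell embryos lay far apart. Hnrnpf rose by 2.07 and Hnrnpll, known for its role in CD45 splicing in lymphocytes, by 1.43, while Hnrnpul1 fell by 2.00 and Hnrnpul2 by 1.52.

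In the probe sets used, the SF3 genes were the family in which more genes fell than rose. The SF3a genes Sf3a3 and Sf3a1 fell by 3.66 ± 0.87 (SE, adjusted p = 0.00296) and 2.25 ± 0.48 (SE, adjusted p = 0.00132). Sf3b3 fell by 2.60 ± 0.29 (SE, adjusted p = 2.49e-06), and Sf3b1, whose product contacts the branch point, fell by 2.53 ± 0.54 (SE, adjusted p = 0.00121). Sf3b1 read 3.88, 3.96 and 4.03 in the oocytes, 3.22, 3.08 and 3.31 at the 1-cell and 1.15, 0.86 and 0.0 at the 2-cell stage, so in this probe set its values fell without overlap at the 2-cell stage from a high start. Further probe sets of these genes did not all fall in group means. Those of Sf3b1 went from -0.621 to 0.611, from -0.008 to -1.461 and from -0.534 to -0.473. That of Sf3a3 went from -1.087 to -0.604. Those of Sf3a1 went from 0.305 to 0.765, from -0.043 to -0.101 and from -0.001 to -0.011. Sf3b6, which encodes the p14 protein at the branch point, read -4.29, -5.20 and -3.82 and then -0.31, -0.25 and -0.08, and rose by 4.22 ± 0.24 (SE, adjusted p = 9.87e-10). Sf3b5 rose by 2.58 ± 0.31 (SE, adjusted p = 4.78e-06).

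Promoters of genes that rose and of genes that fell at this step are shown, as the 250 bases before the start site in RefSeq (mouse assembly GRCm38.p6). Windows were found for 41 of the 46 genes (54 windows), and Snrpb, Hnrnpll, Hnrnpul2, Sf3b4 and Sf3b5 are without one here. The windows below belong to genes that, in the probe sets used, rose at the IVF 2-cell stage (Hnrnpab, Hnrnpm, Srsf6 and Snrpc) or fell (Sf3a3 and Sf3b1). They are written 5′ to 3′ on the strand of the gene, with the motifs named further on in capitals.
Hnrnpab: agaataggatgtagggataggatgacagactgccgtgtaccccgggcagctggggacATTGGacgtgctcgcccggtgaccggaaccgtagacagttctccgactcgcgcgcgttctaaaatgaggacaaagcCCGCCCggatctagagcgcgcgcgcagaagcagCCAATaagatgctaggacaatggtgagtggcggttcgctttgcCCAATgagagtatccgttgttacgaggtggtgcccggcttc
Hnrnpm: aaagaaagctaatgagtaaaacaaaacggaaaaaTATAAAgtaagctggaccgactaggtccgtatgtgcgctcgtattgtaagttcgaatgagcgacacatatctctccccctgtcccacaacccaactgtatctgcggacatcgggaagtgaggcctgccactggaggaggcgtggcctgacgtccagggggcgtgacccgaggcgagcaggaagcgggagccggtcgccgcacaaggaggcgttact
Srsf6: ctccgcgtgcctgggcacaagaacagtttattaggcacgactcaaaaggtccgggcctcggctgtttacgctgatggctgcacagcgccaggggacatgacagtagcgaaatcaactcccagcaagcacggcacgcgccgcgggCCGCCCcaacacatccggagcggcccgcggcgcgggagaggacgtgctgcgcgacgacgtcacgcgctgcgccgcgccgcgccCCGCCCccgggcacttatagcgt
Snrpc: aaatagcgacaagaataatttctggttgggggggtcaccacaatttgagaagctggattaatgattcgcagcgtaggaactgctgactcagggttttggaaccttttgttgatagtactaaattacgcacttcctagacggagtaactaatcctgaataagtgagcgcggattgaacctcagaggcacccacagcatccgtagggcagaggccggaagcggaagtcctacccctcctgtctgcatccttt
Sf3a3: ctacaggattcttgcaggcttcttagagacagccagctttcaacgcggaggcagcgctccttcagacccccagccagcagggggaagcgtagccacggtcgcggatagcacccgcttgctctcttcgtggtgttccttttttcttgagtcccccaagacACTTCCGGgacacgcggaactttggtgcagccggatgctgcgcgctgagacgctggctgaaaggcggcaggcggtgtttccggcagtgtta
Sf3b1: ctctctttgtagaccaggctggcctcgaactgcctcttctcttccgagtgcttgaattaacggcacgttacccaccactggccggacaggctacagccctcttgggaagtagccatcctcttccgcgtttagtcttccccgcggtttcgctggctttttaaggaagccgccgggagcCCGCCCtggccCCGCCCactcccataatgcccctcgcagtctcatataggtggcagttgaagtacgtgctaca
The Hnrnpab window lies at chr11:51606882-51607131 on the minus strand, the Hnrnpm window at chr17:33685459-33685708 on the minus strand, the Srsf6 window at chr2:162931258-162931507 on the plus strand, the Snrpc window at chr17:27839837-27840086 on the plus strand, the Sf3a3 window at chr4:124714611-124714860 on the plus strand and the Sf3b1 window at chr1:55027479-55027728 on the minus strand. Both strands were searched for 5 motifs: GGGCGG (the GC box), CCAAT, CCGGAAGT (an ETS-type site), TATAAA and AAGATGGC (a YY1-type site). GGGCGG occurred in 70.37% of the 54 windows (29 genes), against 32.75% of the 32841 promoter windows of the same length. CCAAT occurred in 46.3% (20 genes) against 33.86%, and CCGGAAGT in 16.67% (7 genes) against 2.88%. TATAAA occurred in 7.41% against 12.37%, and AAGATGGC in 1.85% against 1.56%. The median window of these genes held 19.5 CpG dinucleotides and 61.2% GC, against 6 and 52.4% over all windows. Risers and fallers both held the GC box (Hnrnpab, Srsf6 and Sf3b1), Hnrnpab held 3 CCAAT motifs that overlap no other searched motif, and the Snrpc window held none of the 5. These are matches of letters only.

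Clones also had many calls between the 1-cell and 2-cell stage: 26 of the 46 genes (56.5%, against 41.3% of all genes), with 13 higher (28.3%, against 16.8%) and 13 lower (28.3%, against 24.5%). The median over the 46 genes was 0.013, against -0.0055 over all genes. By family 2 SR genes rose and 2 fell, 6 hnRNP genes rose and 4 fell, 2 SF3 genes rose and 4 fell, and 3 snRNP genes rose and 3 fell. Snrpc rose by 5.86 ± 0.22 (SE, adjusted p = 1.11e-18), Snrpb by 5.27 ± 0.20 (SE, adjusted p = 1.36e-18) and Srsf6 by 4.87 ± 0.30 (SE, adjusted p = 5.05e-14). Sf3a1 fell by 4.61 ± 0.51 (SE, adjusted p = 1.12e-08), Sf3a3 by 3.69 ± 0.66 (SE, adjusted p = 2.67e-05) and Sf3b1 by 3.41 ± 0.45 (SE, adjusted p = 2.85e-07). The further probe set of Sf3a3 went from -2.032 to -1.353 in clone group means. Every further probe set of Sf3a1 and Sf3b1 had a lower group mean in 2-cell than in 1-cell clones.

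**Figure D2:**
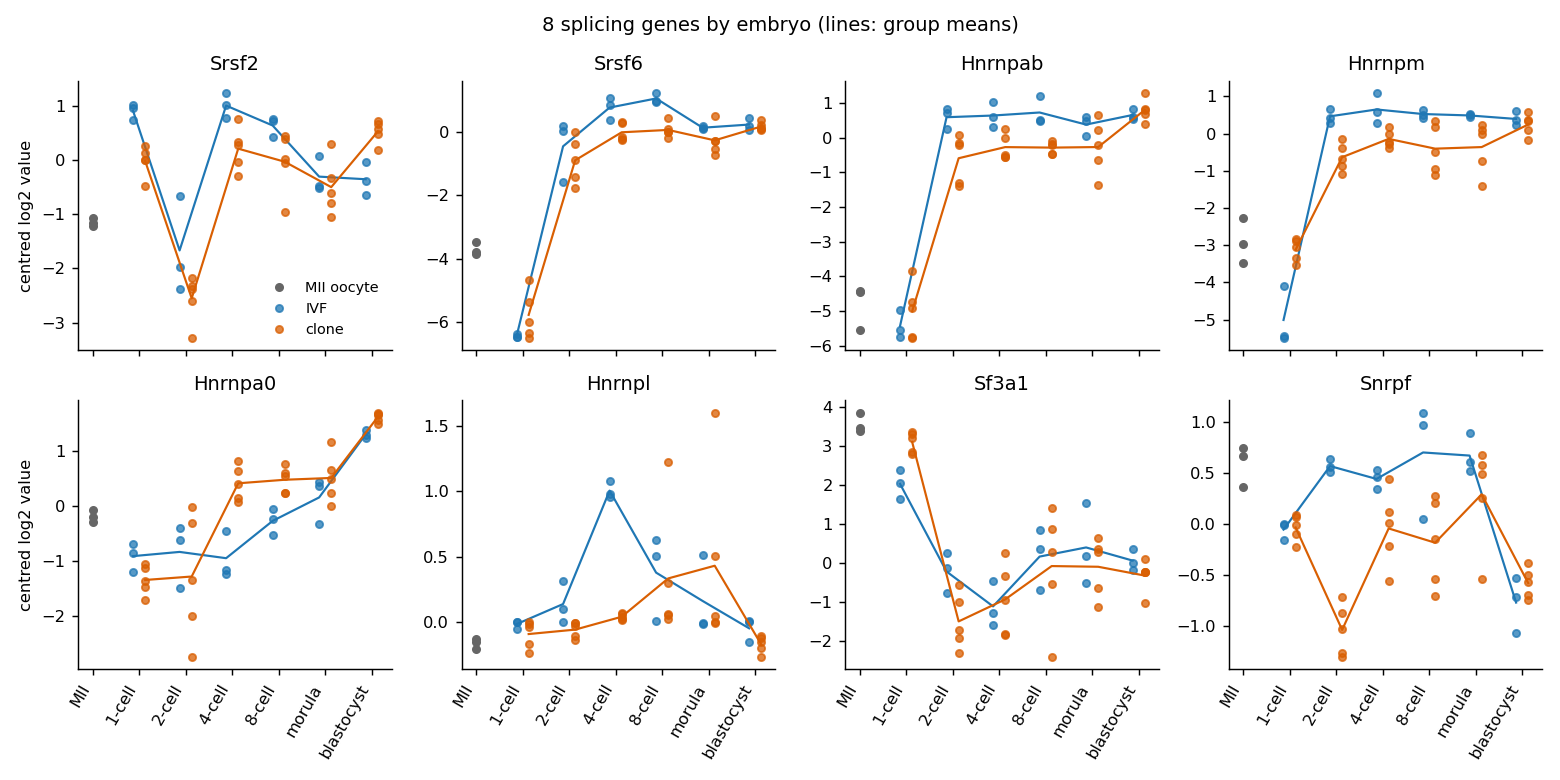
Centred log2 values of 8 splicing genes in every MII oocyte (grey), IVF embryo (blue) and clone (orange) by stage, with lines through the group means. Srsf6, Hnrnpab and Hnrnpm rise steeply at the 2-cell stage in both kinds of embryo, and the 5 clones lie below the 3 IVF embryos for Snrpf at the 2-cell stage and for Hnrnpl at the 4-cell stage.

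From the 2-cell to the 4-cell IVF embryo 20 genes were called (43.5%, against 23.8% of all genes), 17 higher (37%, against 10.5%) and 3 lower (6.52%, against 13.3%). Srsf3, an SR protein with a role in splicing and in mRNA export, read -5.03, -5.10 and -5.01 at the 1-cell, -5.21, -4.58 and -5.28 at the 2-cell and 0.44, -0.34 and -0.24 at the 4-cell stage. It rose by 4.98 ± 0.35 (SE, adjusted p = 1.92e-07), and the oocytes, at -4.94, -4.99 and -4.89, shared the low level of the first stages. Hnrnpll read -4.06, -2.17 and -2.48 and then 0.79, 0.59 and -0.22, and rose by 3.29 ± 0.42 (SE, adjusted p = 4.2e-05). In the probe set used Srsf2 rose again, from -1.97, -0.66 and -2.37 to 1.23, 0.77 and 1.01, by 2.67 ± 0.32 (SE, adjusted p = 2.13e-05), which brought it back near its 1-cell values. The further probe sets of Srsf2 did not share this return. In group means they went from 0.551 to -0.19, from 0.998 to -0.015 and from -0.047 to 0.157 at this step. Hnrnpa2b1 rose by 2.14 ± 0.19 (SE, adjusted p = 1.87e-06). Srsf10, which in its dephosphorylated form represses splicing, fell by 2.44 ± 0.65 (SE, adjusted p = 0.0121), and without IVF 4-cell embryo 1 its fall was no longer called (adjusted p = 0.0677). Hnrnpul2 fell by 1.85 ± 0.16 (SE, adjusted p = 1.58e-06) and Srsf5 fell by 0.94 ± 0.24 (SE, adjusted p = 0.0093).

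In clones 24 genes were called at this step (52.2%, against 30.4% of all genes), with 19 higher (41.3%, against 15.4%) and 5 lower (10.9%, against 15%). All 5 snRNP genes called rose. Hnrnpll rose by 6.04 ± 0.72 (SE, adjusted p = 1.31e-07), Srsf3 by 5.88 ± 0.31 (SE, adjusted p = 1.58e-14) and Srsf2 by 2.76 ± 0.25 (SE, adjusted p = 9.72e-10), while Srsf10, Hnrnpul2 and Srsf5 fell by 2.81, 2.45 and 1.83. Those 3 genes with the largest falls were also the 3 that fell in IVF embryos. The further probe sets of Srsf2 went from 0.612 to -0.188, from 1.05 to 0.193 and from 0.271 to 0.358 in clone group means.

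Few splicing genes were called between the 4-cell and the 8-cell stage. In IVF embryos 2 genes were called (4.35%, against 1.98% of all genes) and both fell (0.759% of all genes fell): Hnrnpul2 by 0.70 ± 0.16 (SE, adjusted p = 0.0416) and Hnrnpl, a regulator that binds CA repeats, by 0.63 ± 0.15 (SE, adjusted p = 0.0447). Each call was lost in 5 of the 6 fits that left out 1 embryo, with adjusted p up to 0.133 and 0.136. Quantile normalization called 4 genes, 1 of them higher. In clones 3 genes were called (6.52%, against 7.12% of all genes), all higher (2.57% of all genes): Srsf5 by 1.02 ± 0.25 (SE, adjusted p = 0.0113), Hnrnpa1 by 0.94 ± 0.22 (SE, adjusted p = 0.00715) and Snrpb by 0.69 ± 0.20 (SE, adjusted p = 0.0324). The call of Snrpb was lost in 6 of the 10 fits without 1 embryo (adjusted p up to 0.0911). Without 8-cell clone 4 Srsf5 and Hnrnpa1 kept their calls, Snrpb lost its call (adjusted p = 0.054), and Sf3a1 gained one (1.44, adjusted p = 0.0405). With quantile normalization 9 genes were called in clones, 8 of them higher (10 and 9 without clone 4).

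Between the 8-cell stage and the morula 6 genes were called in IVF embryos (13%, against 17.2% of all genes), 3 in each direction (6.52% higher against 7.09%, and 6.52% lower against 10.1%). Srsf10 rose by 2.08 ± 0.65 (SE, adjusted p = 0.0386), Hnrnpul1 by 1.44 ± 0.28 (SE, adjusted p = 0.00182) and Hnrnpk, a KH-domain protein that binds C-rich sequence, by 0.77 ± 0.24 (SE, adjusted p = 0.042). Snrpc fell by 0.76 ± 0.19 (SE, adjusted p = 0.00907), Hnrnpa2b1 by 0.62 ± 0.19 (SE, adjusted p = 0.0374) and Hnrnpul2 by 0.54 ± 0.16 (SE, adjusted p = 0.0337). Leaving out 1 embryo ended the calls of Hnrnpk in all 6 fits, of Hnrnpul2 in 5, and of Srsf10 and Hnrnpa2b1 in 4, with adjusted p up to 0.15, 0.132, 0.189 and 0.139. Those of Snrpc and Hnrnpul1 held in every such fit, and quantile normalization raised the count from 6 to 19. In clones 11 genes were called (23.9%, against 18.2%), 4 higher (8.7%, against 10.2%) and 7 lower (15.2%, against 8.06%). Srsf10 rose by 2.37, Hnrnpul1 by 1.65 and Hnrnpd by 1.29, while the changes of Hnrnpr (-2.11), Srsf3 (-1.84) and Hnrnph2 (-1.79) were falls. Without 8-cell clone 4 these 11 calls held, and Sf3b1 (-1.44, adjusted p = 0.0363) and Srsf2 (-0.70, adjusted p = 0.0405) were called as well.

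From the morula to the blastocyst 13 genes were called in IVF embryos (28.3%, against 22.6% of all genes), 7 higher (15.2%, against 12.6%) and 6 lower (13%, against 10.1%). Quantile normalization gave 4 higher of 15. Sf3b2 read -0.025, -0.28 and -0.67 in morulae and 2.34, 2.40 and 2.40 in blastocysts, a rise of 2.71 ± 0.30 (SE, adjusted p = 9.35e-06). Hnrnph3 rose by 2.15 ± 0.43 (SE, adjusted p = 0.00202), Sf3b5 by 1.76 ± 0.31 (SE, adjusted p = 0.00075) and Hnrnpu, a nuclear scaffold protein, by 2.35 ± 0.70 (SE, adjusted p = 0.0241). Hnrnpa1, the best known repressor of exon inclusion among the hnRNP proteins, read -0.0096, -0.38 and -0.37 in morulae and -2.75, -2.75 and -2.54 in blastocysts. It fell by 2.42 ± 0.23 (SE, adjusted p = 2.27e-06), and the blastocysts held its lowest values of the whole IVF series. Snrpf fell by 1.44 ± 0.21 (SE, adjusted p = 0.000171), Snrpa1 by 1.29 ± 0.24 (SE, adjusted p = 0.00103) and Sf3b1 by 1.69 ± 0.54 (SE, adjusted p = 0.0345). The calls of Hnrnpu and Sf3b1 were lost in 4 and 5 of the 6 fits without 1 embryo, with adjusted p up to 0.112 and 0.148.

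In clones 19 genes were called at this step (41.3%, against 35.1% of all genes), 13 higher (28.3%, against 17.2%) and 6 lower (13%, against 17.9%), and with quantile normalization 9 of 20 were higher. Hnrnpdl rose by 2.70 ± 0.57 (SE, adjusted p = 0.000617), Hnrnpc by 2.31 ± 0.50 (SE, adjusted p = 0.000765) and Srsf1 by 1.95 ± 0.75 (SE, adjusted p = 0.0437). The call of Srsf1 was lost in 6 of the 10 fits without 1 embryo (adjusted p up to 0.154). Hnrnpa1 fell by 1.50 ± 0.22 (SE, adjusted p = 6.4e-06), from -0.60, -0.79, -1.17, -1.53 and -0.26 to -2.73, -2.49, -1.84, -2.38 and -2.42, and Snrpa1 and Snrpf fell by 0.99 and 0.87.

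**Figure D3:**
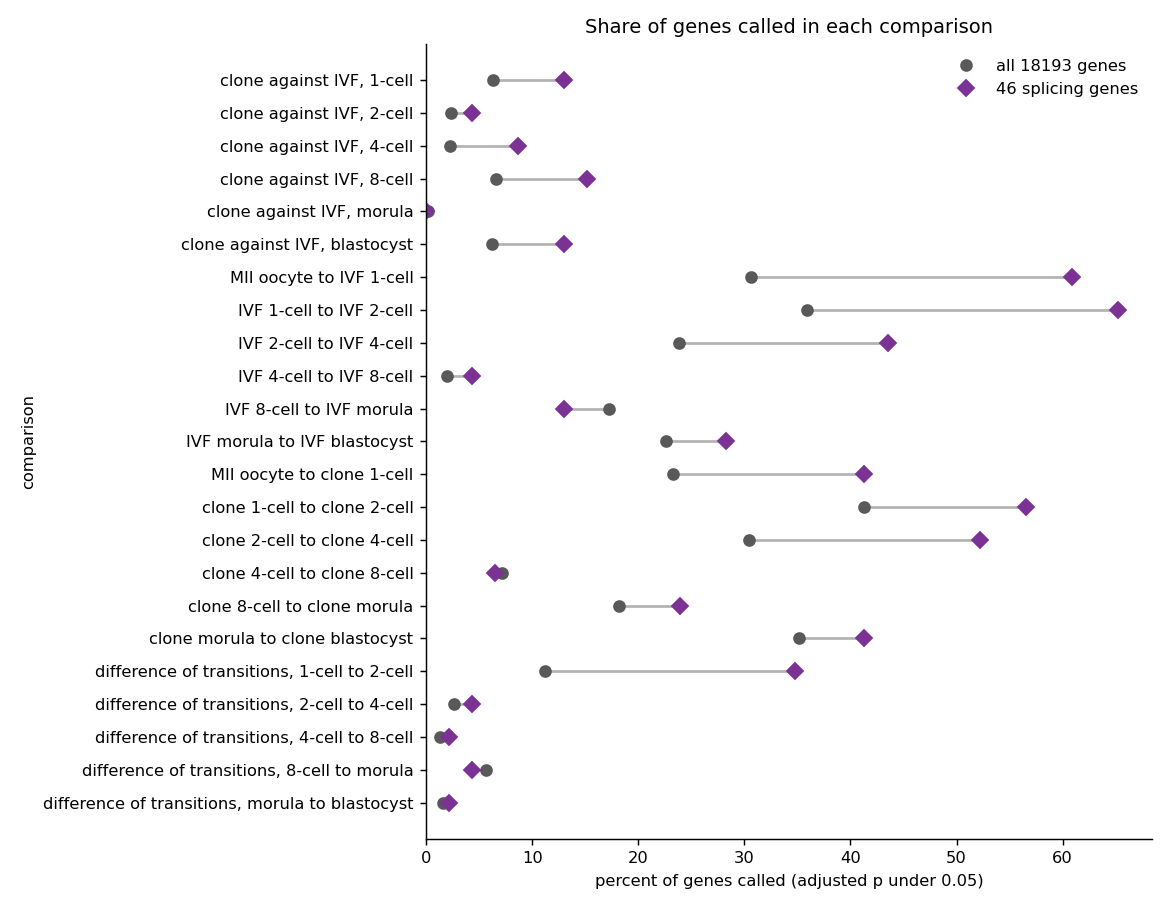
Percent of genes called (limma, adjusted p under 0.05) in each of the 23 comparisons, for the 46 splicing genes (purple diamonds) and for all 18193 genes (grey circles). The widest gaps are at the steps between the MII oocyte and the 2-cell stage of IVF embryos, where 60.9% and 65.2% of the splicing genes were called against 30.6% and 35.9% of all genes. At these steps the hybridisation controls of the groups compared did not overlap either. The splicing genes also had several probe sets to choose from more often than all genes, and the part of that choice in the gaps was not tested.

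At the 1-cell stage, 6 of the 46 splicing genes were called between clones and IVF embryos (13%, against 6.31% of all genes): 4 were higher in clones (8.7%, against 3.52%) and 2 were lower (4.35%, against 2.79%). Under quantile normalization the split was 3 and 3. The values of 15 genes did not overlap between the groups (32.6%, against 14.8% of all genes). Hnrnpdl, which encodes an AUF1-like protein, read -0.11, 0.0 and 0.28 in the IVF embryos and 1.69, 1.73, 1.45, 1.69 and 1.38 in the clones. It was higher in clones by 1.53 ± 0.12 (SE, adjusted p = 0.00273), and the oocytes read 2.25, 2.35 and 2.43. Every clone lay between the IVF embryos and the oocytes. Hnrnpm read -4.09, -5.45 and -5.49 in IVF embryos and -3.03, -2.83, -3.53, -3.33 and -2.89 in clones, a difference of 1.88 ± 0.36 (SE, adjusted p = 0.0323). Sf3a1 read 2.05, 1.64 and 2.39 in IVF embryos and 3.35, 3.21, 2.80, 2.84 and 3.31 in clones, a difference of 1.08 ± 0.21 (SE, adjusted p = 0.0354). The Sm ring gene Snrpe read -0.96, -0.80 and -0.42 in IVF embryos and -0.26, 0.0035, 0.0, -0.13 and 0.0063 in clones, a difference of 0.65 ± 0.13 (SE, adjusted p = 0.0377). In all 3 the groups did not overlap. Of the 9 oocyte markers, 3 were higher in the 1-cell clones, where 3.52% of all genes were called higher.

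Both genes lower in 1-cell clones had risen between oocyte and 1-cell embryo. Srsf2 read 0.75, 1.01 and 0.96 in the IVF embryos and 0.0071, 0.13, 0.25, 0.0 and -0.48 in the clones, a difference of -0.92 ± 0.17 (SE, adjusted p = 0.0278). Hnrnpul1 read 0.38, 0.34 and 0.81 in IVF embryos and -0.28, -0.023, 0.0, -0.021 and -0.24 in clones, a difference of -0.62 ± 0.13 (SE, adjusted p = 0.0413). When each of the 8 embryos was left out in turn, Hnrnpdl was called in all 8 fits, with differences from 1.45 to 1.64. Hnrnpm, Sf3a1 and Srsf2 each lost their call in 6 of the fits, Snrpe in 7 and Hnrnpul1 in 8, with adjusted p up to 0.112, 0.103, 0.101, 0.128 and 0.0896. No embryo turned a direction. With the hybridisation controls as a covariate Hnrnpdl (1.50, adjusted p = 0.025) and Srsf2 (-1.22, adjusted p = 0.0377) were called, while Hnrnpm (1.88), Sf3a1 (1.11), Snrpe (0.70) and Hnrnpul1 (-0.63) were not (adjusted p from 0.155 to 0.19).

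At the 2-cell stage 2 genes were called (4.35%, against 2.37% of all genes). Snrpf, the Sm ring protein F, read 0.56, 0.51 and 0.64 in the IVF embryos and -0.72, -0.87, -1.31, -1.26 and -1.03 in the clones. All 5 clones lay below all IVF embryos, by -1.61 ± 0.15 (SE, adjusted p = 0.00677), and 0.511% of all genes were called higher and 1.86% lower. Sf3b5 read -0.74, -0.89 and -0.64 in the IVF embryos and 0.51, 0.90, 0.025, 0.53 and 0.13 in the clones, and was higher in clones by 1.18 ± 0.21 (SE, adjusted p = 0.0436). Snrpf was called in all 8 fits that left out 1 embryo (-1.69 to -1.54), and Sf3b5 in 0 of them (adjusted p up to 0.141). With the hybridisation controls as a covariate the differences were -1.57 for Snrpf and 2.04 for Sf3b5, and neither was called (adjusted p = 0.896 and 0.85; 2 of the 46 genes had an unadjusted p under 0.05).

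Apart from these 2 calls, 1 in each direction, the 2-cell differences are described without a test. The median difference over the 46 genes was -0.43, against 0.0028 over all genes, and 14 of the 46 lay above 0 (30.4%, against 53.4% of all genes). Under quantile normalization the median was -0.26 and 19 lay above 0. The mean over the 46 genes was -0.84 to -0.67 in the 5 clones and -0.53 to -0.33 in the 3 IVF embryos, without overlap. The mean over all genes was also lower in the clones, at 0.038 to 0.15 against 0.18 to 0.24. The values of 14 of the 46 genes did not overlap between the groups (30.4%, against 11.9% of all genes). Leaving out the 30% of genes with the smallest standard deviation raised the number called from 2 to 5, of which 3 were lower in clones.

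At the 4-cell stage 4 genes were called (8.7%, against 2.26% of all genes), 1 higher (2.17%, against 0.462%) and 3 lower (6.52%, against 1.8%). Hnrnpl read 0.98, 0.96 and 1.08 in the IVF embryos and 0.018, 0.023, 0.035, 0.059 and 0.068 in the clones, a difference of -0.96 ± 0.038 (SE, adjusted p = 0.000224). The IVF value of Hnrnpl was the highest group mean of its IVF series, and the clones stayed near the baseline of the probe set. Hnrnpd read 0.26, 0.39 and 0.50 in IVF embryos and -0.76, -0.56, -0.95, -0.79 and -0.69 in clones, a difference of -1.13 ± 0.10 (SE, adjusted p = 0.00458). Srsf9 read 0.89, 1.37 and 1.04 in IVF embryos and -0.34, 0.10, -0.68, -0.75 and -0.23 in clones, a difference of -1.48 ± 0.22 (SE, adjusted p = 0.0247). Hnrnpa0, a small A-type hnRNP, was higher in clones, reading -0.45, -1.17 and -1.24 in IVF embryos and 0.39, 0.82, 0.14, 0.63 and 0.063 in clones, a difference of 1.36 ± 0.25 (SE, adjusted p = 0.0487). All 4 genes were without overlap, as were 18 of the 46 in all (39.1%, against 11.1% of all genes). Hnrnpl and Hnrnpd were called in all 8 fits that left out 1 embryo, Srsf9 was lost in 5 (adjusted p up to 0.085) and Hnrnpa0 in 7 (up to 0.156). Median centring of the arrays called 3 genes and quantile normalization 2, all lower in clones. With the hybridisation controls as a covariate the differences were -1.001 for Hnrnpl (adjusted p = 0.457), -0.82 for Hnrnpd (0.607), -0.65 for Srsf9 (0.801) and 0.99 for Hnrnpa0 (0.763), and 0 genes were called by limma (6 with an unadjusted p under 0.05).

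At the 8-cell stage 7 genes were called (15.2%, against 6.62% of all genes), 3 higher in clones (6.52%, against 2.15%) and 4 lower (8.7%, against 4.47%). Without 8-cell clone 4 the count was 3 (6.52%, against 4.82% of all genes): Hnrnpul1 (0.96, adjusted p = 0.0376), Snrpa1 (-0.83, adjusted p = 0.0472) and Srsf6 (-0.97, adjusted p = 0.0379). Hnrnpul1 read -1.03, -0.54 and -0.82 in IVF embryos and -0.0047, 0.26, 0.42, 0.0023 and -0.014 in clones 1 to 5, a difference of 0.93 ± 0.15 (SE, adjusted p = 0.0218). Snrpa1 read 0.96, 1.15 and 0.78 in IVF embryos and 0.20, 0.11, -0.16, 0.30 and 0.40 in clones, a difference of -0.80 ± 0.14 (SE, adjusted p = 0.0301). Srsf6 read 0.95, 1.21 and 0.98 in IVF embryos and -0.021, 0.43, -0.21, -0.018 and 0.10 in clones, a difference of -0.99 ± 0.15 (SE, adjusted p = 0.018). These groups were without overlap, with clone 4 or without it. In all, 14 of the 46 genes did not overlap (30.4%), a smaller share than the 48.2% of all genes, and without clone 4 the count was 18 (39.1%, against 51.2%). With the hybridisation controls as a covariate 0 of the 46 genes were called by limma, with clone 4 or without it (8 and 11 with an unadjusted p under 0.05). Of all genes, 0.0934% were called in that fit with clone 4 and 0.0275% without it. The differences in the fit with clone 4 were 0.99 for Hnrnpul1, -0.96 for Snrpa1, -0.97 for Srsf6, -1.16 for Hnrnph2, -0.70 for Hnrnpab, 0.66 for Sf3a2 and 1.07 for Hnrnpa0, with adjusted p from 0.275 to 0.555. In the mean of its 4 probe sets Srsf6 was 0.37 higher in clones (adjusted p = 0.455), so its direction depended on the probe set.

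The other 4 genes lost their call without 8-cell clone 4, with little movement of the difference. Hnrnph2 differed by -1.37 ± 0.26 (SE, adjusted p = 0.0361) with it and by -1.43 (adjusted p = 0.0531) without it. Hnrnpab differed by -1.01 ± 0.19 (SE, adjusted p = 0.0353) and by -0.97 (adjusted p = 0.0632). Sf3a2 differed by 0.80 ± 0.17 (SE, adjusted p = 0.0429) and by 0.83 (adjusted p = 0.0641), and Hnrnpa0 by 0.75 ± 0.16 (SE, adjusted p = 0.0463) and by 0.81 (adjusted p = 0.0547). Over the 8 fits without 1 embryo, the call of Hnrnpul1 was lost without IVF embryo 1 or 3 (adjusted p up to 0.07), that of Srsf6 in 3 fits (up to 0.0643), those of Snrpa1 and Hnrnph2 in 5 (up to 0.0949 and 0.116), that of Hnrnpab in 6 (up to 0.0679), that of Sf3a2 in 7 (up to 0.137) and that of Hnrnpa0 in 8 (up to 0.138). Median centring gave 1 gene higher of 5 (10.9%, against 5.62% of all genes), and quantile normalization 4 higher of 6 (13%, against 5.55%). Without clone 4 these were 1 of 3 (6.52%, against 4.64%) and 3 of 3 (6.52%, against 4.71%). The median over the 46 genes was -0.22 as deposited and 0.086 after quantile normalization, and over all genes 0.035 and 0.036. Without clone 4 the medians of the 46 genes were -0.13 and 0.16. The mean over all genes was lower in clones without overlap (-0.15 to 0.071 against 0.15 to 0.18). Of the 9 oocyte markers 3 were called lower (33.3%, against 4.47% of all genes) and 0 higher. Without clone 4, 2 were lower (22.2%, against 3.59%).

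In the morula 0 of the 46 genes were called by limma, against 0.165% of all genes (0.077% higher and 0.0879% lower). The groups did not overlap in 10 of the 46 (21.7%, against 8.51% of all genes). An unadjusted p under 0.05 was reached by 10 of the 46, against 10% of all genes, with array weights 2 genes were called, and without the 30% of genes of smallest standard deviation 1 was. Hnrnph2 read 1.07, 1.54 and 0.31 in IVF morulae and -1.27, -2.58, -2.14, -1.001 and -1.65 in clones, without overlap, but the difference of -2.70 ± 0.44 (SE, adjusted p = 0.0783) was not called.

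In the blastocyst 6 genes were called (13%, against 6.18% of all genes), 4 higher in clones (8.7%, against 2.84%) and 2 lower (4.35%, against 3.34%), and 4 of 5 were higher with quantile normalization. Hnrnpd read 0.50, 0.59 and 0.61 in IVF embryos and 1.03, 1.03, 0.99, 1.02 and 1.05 in clones, a difference of 0.46 ± 0.03 (SE, adjusted p = 0.00181). In this probe set it was lower in clones at the 4-cell stage and higher here. A further probe set of Hnrnpd, 1457568_at, had -1.02 ± 0.48 (SE; adjusted p = 0.349) in the blastocyst, and the last, 1458273_at, had 0.63 ± 0.46 (SE; adjusted p = 0.569), so neither was called and the first had the opposite sign. Srsf2 read -0.65, -0.38 and -0.03 in IVF embryos and 0.57, 0.49, 0.72, 0.66 and 0.18 in clones, a difference of 0.88 ± 0.17 (SE, adjusted p = 0.0345). Hnrnpa0 read 1.24, 1.28 and 1.37 in IVF embryos and 1.56, 1.69, 1.49, 1.65 and 1.67 in clones, a difference of 0.32 ± 0.057 (SE, adjusted p = 0.0285). The group mean of Hnrnpa0 was higher in clones at the 4-cell, 8-cell, morula and blastocyst stages, and the difference was called at these stages except the morula, with the 8-cell call lost in all 8 fits without 1 embryo. Sf3b4, the SF3b protein that contacts RNA upstream of the branch point, was higher by 0.30 ± 0.067 (SE, adjusted p = 0.0493). Srsf4 read 0.41, -0.03 and -0.12 in IVF embryos and -0.42, -0.53, -0.53, -0.51 and -0.65 in clones, a difference of -0.61 ± 0.12 (SE, adjusted p = 0.0376). Snrpg, the Sm ring protein G, read 0.59, 0.45 and 0.60 in IVF embryos and 0.13, 0.15, 0.27, 0.28 and 0.27 in clones, a difference of -0.33 ± 0.054 (SE, adjusted p = 0.0218).

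None of these 6 blastocyst genes overlapped between the groups, 14 of the 46 did not (30.4%, against 16.3% of all genes), and the median standard deviation was 0.176 in IVF and 0.211 in clone blastocysts. Hnrnpd was called in all 8 fits without 1 embryo (0.43 to 0.48) and with the hybridisation controls as a covariate (0.43, adjusted p = 0.0119). In that fit Srsf2 (0.71), Sf3b4 (0.34), Hnrnpa0 (0.25), Snrpg (-0.34) and Srsf4 (-0.45) were not called (adjusted p from 0.0801 to 0.139). Snrpg lost its call in 3 of the 8 fits, Srsf2, Srsf4 and Hnrnpa0 in 6 and Sf3b4 in 8, with adjusted p up to 0.0726, 0.0991, 0.0835, 0.091 and 0.148. The 3′ to 5′ signal difference of the Actb and Gapdh control probe sets also differed between the groups, at -1.52 to -0.72 in clones and -2.36 to -1.63 in IVF blastocysts, and its part in these results was not tested. In IVF 1-cell embryos (-0.96 to -0.46) it likewise did not overlap that of MII oocytes (-0.37 to 0.082) or IVF 2-cell embryos (-0.14 to 0.185). Of the 25 calls between clones and IVF embryos over the 6 stages, 5 held in every fit without 1 embryo: Hnrnpdl at the 1-cell stage, Snrpf at the 2-cell stage, Hnrnpl and Hnrnpd at the 4-cell stage, and Hnrnpd in the blastocyst.

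Whether a step itself differed between clones and IVF embryos was read from the interaction term of a limma model over the 51 arrays. At the step from the 1-cell to the 2-cell stage 16 of the 46 splicing genes were called (34.8%, against 11.2% of all genes), 10 with a more negative change in clones (21.7%, against 7.24%) and 6 with a more positive one (13%, against 3.96%). The median over the 46 genes was -0.51, against 0.0030 over all genes. This difference holds both the 1-cell and the 2-cell gap between the groups, and both gaps lie between arrays whose hybridisation controls stood apart. Each gene was read from the probe set used, and 10 of the called genes had 26 further probe sets. The same sign was found in 12 of these, 2 of them called, and 1 was called in the opposite direction.

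The snRNP genes had 4 calls among 8 genes, 3 of them negative. Snrpe rose in IVF embryos by 0.72 and fell in clones by 0.52, from the 1-cell values given above to -0.0009, 0.025 and -0.031 in IVF and -0.40, -0.29, -0.64, -0.95 and -0.73 in clone 2-cell embryos. The difference was -1.25 ± 0.15 (SE, adjusted p = 6.03e-08). Snrpf likewise rose in IVF embryos by 0.62 and fell in clones by 1.01, with a difference of -1.63 ± 0.32 (SE, adjusted p = 0.000359). Both genes code for neighbours in the Sm ring. Snrpa1 rose in both, by 2.64 in IVF embryos and 1.40 in clones, and differed by -1.24 ± 0.32 (SE, adjusted p = 0.00592). Snrpc rose further in clones, by 5.86 against 4.16, from clone 1-cell values of -5.69, -6.04, -5.35, -4.48 and -4.77, with a difference of 1.70 ± 0.32 (SE, adjusted p = 0.000243).

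Of the hnRNP genes, Hnrnpm rose by 5.47 in IVF embryos and by 2.49 in clones, with a difference of -2.98 ± 0.45 (SE, adjusted p = 9.68e-06). Its clones had started higher and ended lower, at -0.15, -0.86, -0.39, -1.10 and -0.68 in 2-cell clones. Hnrnpc, a protein that sorts RNAs by length and binds uridine tracts, read -0.92, -2.28 and 0.54 in 1-cell and -1.06, -1.40 and -0.94 in 2-cell IVF embryos. In clones it read 0.84, 0.45, 0.46, -0.95 and -0.40 and then -4.17, -3.62, -2.50, -2.77 and -2.49, and its steps differed by -2.94 ± 0.79 (SE, adjusted p = 0.00914). All 5 2-cell clones lay below the 3 IVF embryos, while the 1-cell groups overlapped. Hnrnph1 rose by 0.77 in IVF embryos and fell by 0.76 in clones, a difference of -1.52 ± 0.37 (SE, adjusted p = 0.00372). Hnrnpab differed by -1.61 ± 0.53 (SE, adjusted p = 0.0409). Hnrnpul1 (1.77), Hnrnpk (1.35) and Hnrnpa2b1 (1.04) differed in the positive direction, with adjusted p of 0.000855, 0.0105 and 0.0392. The difference of Hnrnpa2b1 turned to -0.55 in the mean of its probe sets. In Hnrnpc, Hnrnpk and Hnrnpa2b1 every further probe set had a difference of the opposite sign.

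Srsf5 had the largest positive difference. It read -1.17, -2.10 and -1.66 in 1-cell and -0.25, -0.036 and 0.61 in 2-cell IVF embryos, and -2.85, -3.00, -2.75, -2.81 and -2.22 in 1-cell and 0.98, 1.24, 1.27, 1.09 and 1.75 in 2-cell clones. The clones began below and ended above the IVF embryos at both ends without overlap, and the difference was 2.24 ± 0.39 (SE, adjusted p = 7.72e-05). Srsf9 differed by -2.67 ± 0.62 (SE, adjusted p = 0.00246) and Srsf11 by -2.47 ± 0.84 (SE, adjusted p = 0.0489). Of the SF3 genes, Sf3a1 differed by -2.36 ± 0.79 (SE, adjusted p = 0.0445) and Sf3b5 by 1.89 ± 0.63 (SE, adjusted p = 0.0448). Sf3a1 read -0.14, -0.78 and 0.24 in IVF 2-cell embryos and -2.31, -1.94, -0.996, -0.57 and -1.71 in clones, which had begun above the IVF embryos.

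**Figure D4:**
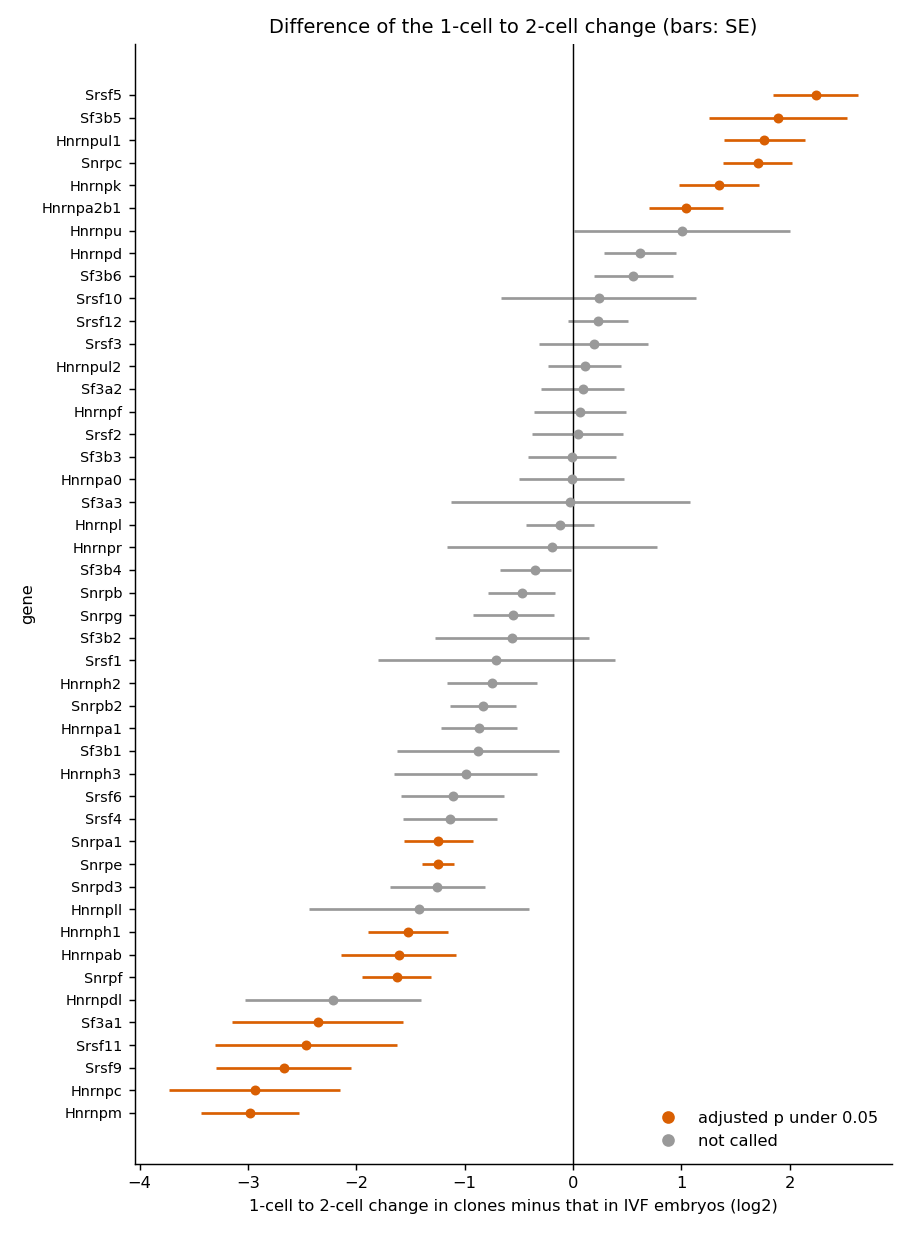
Change from the 1-cell to the 2-cell stage in clones minus that in IVF embryos (log2, with standard error) for the 46 splicing genes, from 1 limma fit of 51 arrays. The 16 genes in orange were called, from Hnrnpm at -2.98 to Srsf5 at 2.24, and 10 of them lie below 0.

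Later steps differed in few of these genes. At the 2-cell to 4-cell step Hnrnpa0 (1.81 ± 0.49 SE, adjusted p = 0.0305) and Snrpf (1.12 ± 0.32 SE, adjusted p = 0.0449) were called (4.35%, against 2.64% of all genes), both positive (1.45% of all genes). At the 4-cell to 8-cell step Hnrnpa1 (1.42 ± 0.35 SE, adjusted p = 0.0301) was called (2.17%, against 1.31%; positive calls, 0.286%), and it kept its call without 8-cell clone 4 (1.55, adjusted p = 0.0139). It read 0.92, 0.54 and 1.13 in 4-cell and 0.49, 0.48 and 0.18 in 8-cell IVF embryos, and -0.18, -0.86, 0.0058, -0.70 and 0.52 in 4-cell and 0.69, 0.88, 1.03, 0.20 and 0.70 in 8-cell clones. At the 8-cell to morula step Hnrnpr and Hnrnph2 were called (4.35%, against 5.66% of all genes), both negative (1.38% of all genes). Hnrnpr differed by -3.18 ± 0.97 (SE, adjusted p = 0.0423), but its IVF 8-cell embryos read 0.40, -3.70 and 0.60, so that 1 embryo stood apart. Without 8-cell clone 4 Hnrnpr differed by -3.24 (adjusted p = 0.0452), Hnrnph2 was no longer called (-1.27, adjusted p = 0.0668), and Srsf3 was (-1.73, adjusted p = 0.0296). At the last step Hnrnph2, an X-linked gene, was called (2.17%, against 1.62%; positive calls, 0.984%), with 2.39 ± 0.41 (SE, adjusted p = 0.000297): IVF blastocysts read 0.023, -0.083 and 0.023 and clone blastocysts -0.28, -0.61, -0.46, -0.38 and 0.13, while the morulae had stood apart as given above. The IVF embryos were of both sexes and the donor nuclei male, and the part of sex in this difference was not tested.

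At the 1-cell stage Hnrnpk, whose steps are given above, read -2.08, -2.58 and -2.71 in the oocytes, -0.77, -0.71 and -1.64 in IVF and -2.33, -3.07, -1.91, -2.72 and -3.75 in clone 1-cell embryos. The clones lay below the IVF embryos without overlap, but the difference of -1.72 ± 0.45 (SE, adjusted p = 0.0843) was not called.

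Several of these genes were measured by probe sets that did not follow each other. At the IVF 1-cell to 2-cell step, the called genes had 52 further probe sets, of which 28 had the same sign, 20 of them called, and 5 were called in the opposite direction, with p-values adjusted over 34945 probe sets. At the clone and IVF 8-cell comparison 12 further probe sets held 6 of the same sign, 3 of them called, and 1 called in the opposite direction. Tested without 8-cell clone 4, these 12 held 6 of the same sign, 1 of them called, and 0 called in the opposite direction by limma.

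Srsf1 had 7 probe sets. The one used here (1428100_at) read -1.29, -0.053 and -0.17 in the oocytes and 2.97, 3.56 and 3.51 in IVF blastocysts. Of the others, 1434972_x_at read -4.48, -4.55 and -4.92 in oocytes, -4.43, -4.03 and -3.55 in IVF 1-cell embryos and 0.58, 1.19 and 0.65 in 2-cell embryos. It rose by 4.81 ± 0.21 (SE; adjusted p = 6.53e-11), and 1428099_a_at, 1453722_s_at and 1430982_at rose by 4.01, 3.27 and 1.98. These 4 probe sets of Srsf1 thus rose with the genes above at the 2-cell stage, while the probe set of largest standard deviation did not. In 1 further probe set, 1452430_s_at, the 2-cell clones read 2.92, 2.57, 3.13, 2.59 and 3.97 against 1.08, 0.94 and 1.13, higher by 1.99 ± 0.33 (SE; adjusted p = 0.041).

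Srsf3 had 6 probe sets. The one used (1416151_at) lay near -5 in oocytes and in 1-cell and 2-cell embryos of both kinds. In 1454993_a_at the 2-cell IVF embryos read -3.51, -2.36 and -2.15 and the clones -4.47, -5.02, -6.65, -5.92 and -5.46. All clones lay lower, by -2.83 ± 0.56 (SE; adjusted p = 0.0677), which was not called. The change from the 1-cell to the 2-cell stage was more negative in clones in 1454993_a_at by -2.94 (adjusted p = 1.66e-05), in 1416152_a_at by -3.33 (1.22e-05), in 1416150_a_at by -1.98 (0.000129) and in 1434512_x_at by -1.17 (0.00845). The last probe set of Srsf3, 1438215_at, went the other way, at 2.60 (0.0026). It read 2.06, 2.62, 4.42, 1.25 and 2.84 in the 2-cell clones and 0.17, -0.0024 and -0.015 in the IVF embryos.

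**Figure D5:**
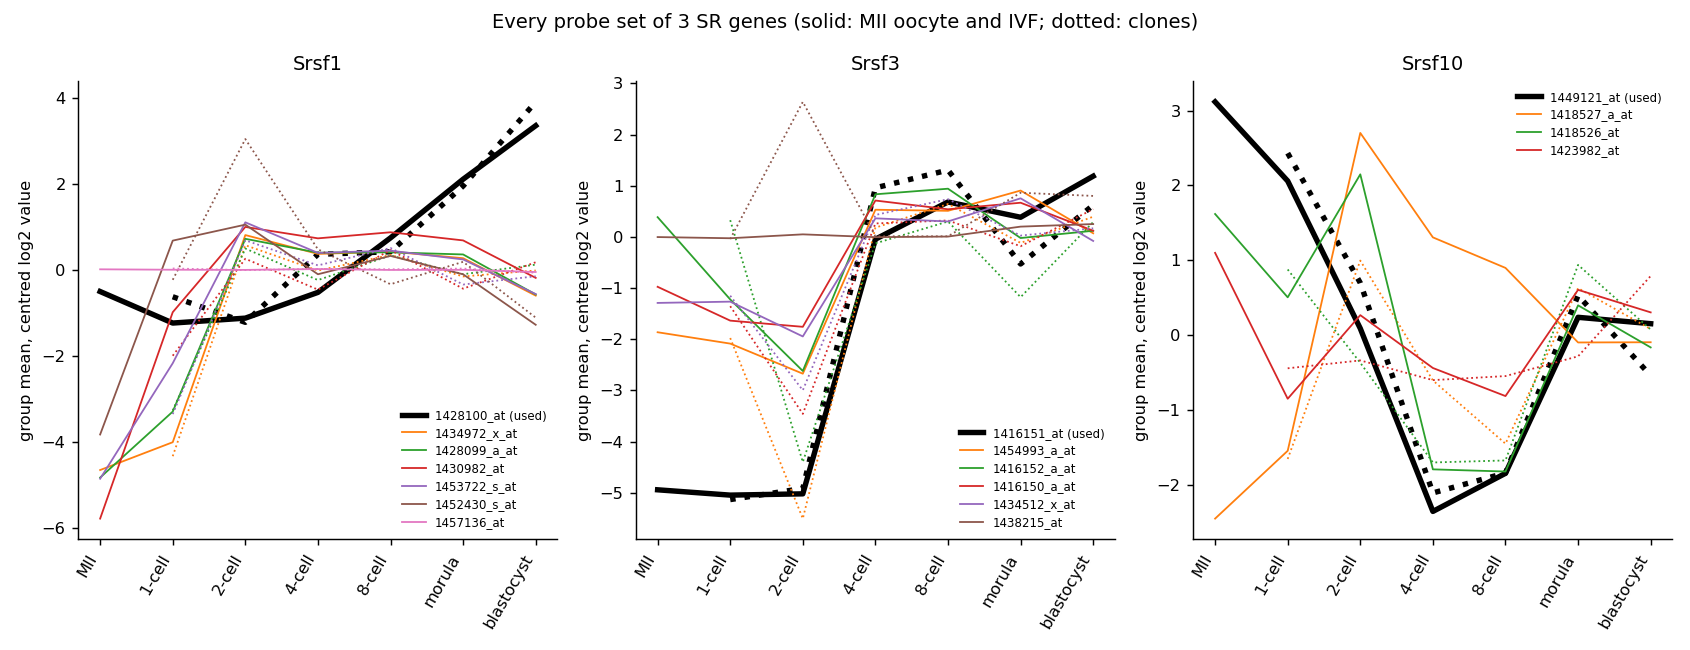
Group means (centred log2 values) of every probe set of Srsf1, Srsf3 and Srsf10 by stage, with solid lines for MII oocytes and IVF embryos, dotted lines for clones and a thick black line for the probe set used. For Srsf1 and Srsf10 the probe set used takes another course than most of the others, and for Srsf3 4 probe sets dip further at the 2-cell stage in clones.

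For Srsf10 the probe set used (1449121_at) fell between the 1-cell and 2-cell IVF embryo by 1.97, while the other 3 of the gene rose, 1418527_a_at by 4.25, 1418526_at by 1.64 and 1423982_at by 1.12. In 1418526_at the 2-cell IVF embryos read 1.96, 2.36 and 2.13 and the clones 0.0, -0.26, -1.25, 0.05 and -0.37. That difference of -2.52 ± 0.31 (SE; adjusted p = 0.0193) was called, in a gene whose probe set of largest standard deviation showed 0.61 (adjusted p = 0.745).

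The wider splicing machinery was read from 138 further genes in 7 lists. At the IVF 1-cell to 2-cell step 47 of the 138 rose (34.1%, against 17.2% of all genes) and 37 fell (26.8%, against 18.7%). The counts of the lists below are to be read against the same shares of all genes. Of the 12 genes of the SMN complex and its partners, which load the Sm ring onto small nuclear RNA, 8 rose and 3 fell, with a list median of 3.20. Wdr77, which works with the arginine methyltransferase that modifies Sm proteins, rose by 8.25 ± 0.38, adjusted p = 9.05e-11, Gemin5 by 6.98 ± 0.40, adjusted p = 1.21e-09 and the helicase gene Ddx20 by 4.60 ± 0.25, adjusted p = 6.17e-10. The 10 LSm ring genes gave 3 rises and 3 falls (Lsm8 5.77 ± 0.38, adjusted p = 5.37e-09 and Lsm3 -2.98 ± 0.26, adjusted p = 1.83e-07). Of 19 genes for splice site recognition 8 rose and 3 fell, with Rbm5 at 6.07 ± 0.39, adjusted p = 4.75e-09 and the U2AF subunit gene U2af1 at 3.25 ± 0.26, adjusted p = 6.44e-08.

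The 41 genes of the tri-snRNP, the Prp19 complex and the catalytic steps gave 12 rises and 15 falls, among them Cwc22 (4.03 ± 0.19, adjusted p = 1.58e-10), Xab2 (4.17 ± 0.22, adjusted p = 6.12e-10) and Prpf6 (-3.79 ± 0.24, adjusted p = 3.43e-09). The 23 SR kinases and SR-like coactivators gave 8 rises and 5 falls (Tra2b 2.86 ± 0.33, adjusted p = 3.54e-06 and Son 2.59 ± 0.34, adjusted p = 1.31e-05), the 8 genes of the minor spliceosome 4 and 2 (Snrnp35 4.56 ± 0.38, adjusted p = 1.01e-07), and 25 other regulators 4 and 6 (Khdrbs1 4.34 ± 0.28, adjusted p = 4.91e-09 and Celf2 -3.56 ± 0.43, adjusted p = 5.69e-06).

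Between clones and IVF embryos, 3 of these 138 genes were higher (2.17%, against 3.52% of all genes) and 10 lower (7.25%, against 2.79%) at the 1-cell stage. At the 2-cell stage 1 was higher (0.725%, against 0.511%) and 9 lower (6.52%, against 1.86%), and at the 4-cell stage 1 was higher (0.725%, against 0.462%) and 7 lower (5.07%, against 1.8%). At the 8-cell stage 6 were higher (4.35%, against 2.15%) and 6 lower (4.35%, against 4.47%). Leaving out 8-cell clone 4, these were 4 (2.9%, against 1.23%) and 5 (3.62%, against 3.59%). In the morula 0 were called by limma (0.165% of all genes were), with an unadjusted p under 0.05 in 22, and in the blastocyst 3 were higher (2.17%, against 2.84%) and 10 lower (7.25%, against 3.34%). At the 1-cell stage Cdc5l, a core protein of the Prp19 complex, was lower in clones (-5.31 ± 0.44, adjusted p = 0.003), as was the SR kinase gene Srpk1 (-1.59 ± 0.22, adjusted p = 0.0111). At the 2-cell stage 4 of the 19 genes for splice site recognition were lower and 0 higher, among them Tial1 (-4.36 ± 0.23, adjusted p = 0.000756), Rbmx2 (-2.70 ± 0.32, adjusted p = 0.0143) and the branch point protein gene Sf1 (-1.93 ± 0.20, adjusted p = 0.00937). The difference of the 1-cell to 2-cell step was called in 25 of the 138 (18.1%, against 11.2% of all genes), 10 positive (7.25%, against 3.96%) and 15 negative (10.9%, against 7.24%).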

How the data were processed

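Single oocytes and embryos were hybridised to 51 one-colour expression arrays after 2-cycle RNA amplification. The authors deposited 1 table of log2 values; RMA is named in the submitters' processing notes, without a version. The labels do not mention centring or the base of the logarithm: the centring was inferred because 94.3% of the 45101 probe sets had exactly 1 array at 0, and base 2 from the range of the values. The number of arrays limits the precision, and no detection calls were used.

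Probe sets with exactly 1 gene symbol in the platform annotation were kept (34945, with 932 shared by several symbols and 9160 without one), and each gene was read from the one with the largest standard deviation over all arrays. Comparisons were fitted to all 18193 genes with limma 3.58.1 (R 4.3.3; lmFit, eBayes), with p-values adjusted by Benjamini and Hochberg and a threshold of 0.05. Clones were compared with IVF embryos in the 8 arrays of a stage, steps between stages within each series (21 and 33 arrays, oocytes shared), and differences of steps in all 51. The steps of IVF embryos and clones from the oocyte share the 3 oocytes. The fits were tested on simulated data.

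The splicing genes and the other gene lists were chosen with earlier results of these data known. Named were the called genes with the largest differences whose groups did not overlap (up to 6 each way between clones and IVF embryos), the largest rises and falls at each step (up to 4 in IVF embryos and 3 in clones and in differences), a followed set (Srsf1, Srsf2, Srsf3, Hnrnpa1, Hnrnpa2b1, Hnrnpk, Sf3a1, Sf3b1 and Snrpb), and up to 3 genes of each other list. Further genes, and the genes whose single probe sets are described, were chosen after their values were seen. Same-numbered embryos did not deviate together (correlations from -0.20 to 0.10), so replicate numbers were not taken as pairs. Alternatives were the mean of a gene's probe sets, median centring, quantile normalization, the hybridisation controls (18 probe sets) as a covariate, a filter on the 30% of genes with the smallest standard deviation, the replicate number as a block, array weights, and leaving out each embryo. Every probe set on its own, and the differences of steps, the list counts and the other settings of the 8-cell stage without 8-cell clone 4, were added after seeing the data. Besides the 5 motifs reported, 2 longer palindromic motifs were searched in the promoter windows, and their shares are not reported here.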

Additional observations from a re-analysis of the deposited data

Results flagged for a closer look

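The step from the 1-cell to the 2-cell stage differed between clones and IVF embryos by limma's interaction test in 16 splicing genes. Each was read from the probe set used. Of these genes 10 had further probe sets, 26 in all. The same sign was found in 12 of these, 2 of them called, and 1 was called in the opposite direction. In Hnrnpc, Hnrnpa2b1, Hnrnpk and Srsf11 every further probe set had the opposite sign. The change in clones was the lower one for Hnrnpm (-2.98), Hnrnpc (-2.94), Srsf9 (-2.67), Srsf11 (-2.47), Sf3a1 (-2.36), Snrpf (-1.63), Hnrnpab (-1.61), Hnrnph1 (-1.52), Snrpe (-1.25) and Snrpa1 (-1.24). It was the higher one for Hnrnpa2b1 (1.04), Hnrnpk (1.35), Snrpc (1.70), Hnrnpul1 (1.77), Sf3b5 (1.89) and Srsf5 (2.24). At later steps the test was passed by Hnrnpa0 (1.81) and Snrpf (1.12) from the 2-cell to the 4-cell stage, by Hnrnpa1 (1.42) from the 4-cell to the 8-cell stage, by Hnrnpr (-3.18) and Hnrnph2 (-1.34) from the 8-cell stage to the morula, and by Hnrnph2 (2.39) from the morula to the blastocyst.

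In 3 of 89 clone groups checked, 1 embryo stood apart from the other 4 by Dixon's criterion (a gap over 0.71 of the group's range), which chance gives in about 1 of 20 groups. Srsf11 read -0.75 in 1-cell clone 1 and -2.56 to -2.22 in the others. Sf3b1 read 4.17 in 1-cell clone 2 and 3.32 to 3.45 in the others. Hnrnpdl read -4.24 in clone morula 3 and -1.96 to -1.43 in the others.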

How the results depend on the processing

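Of 117 recomputed counts of called splicing genes, 29 moved by more than 1.5 times, and of 1494 recomputed values of named genes, 11 turned direction. The counts below are of the splicing genes alone. Without the shares of all genes under the same settings, they do not show whether the splicing genes moved more than all genes. The replicate number as a block left 0 genes called between clones and IVF embryos at the 1-cell, 2-cell, 4-cell and 8-cell stages and in the blastocyst (6, 2, 4, 7 and 6 without it), 1 at the IVF 4-cell to 8-cell step and 1 in the difference of the 2-cell to 4-cell step. It is no pairing, since the numbers did not pair the embryos. With the hybridisation controls as a covariate 2, 0, 0 and 0 genes were called at the first 4 stages and 1 in the blastocyst. The filter on small standard deviations gave 5 at the 2-cell stage, 1 in the morula and 0 at the IVF 4-cell to 8-cell step, and array weights gave 2 in the morula. Quantile normalization gave 2 at the 4-cell stage, 10 from oocyte to IVF 1-cell embryo, 4 from oocyte to 1-cell clone, 4 and 9 at the 4-cell to 8-cell step of IVF embryos and clones, and 19 at the IVF 8-cell to morula step. The mean of a gene's probe sets gave 3 at the 8-cell stage, 0 and 5 at the 4-cell to 8-cell step of IVF embryos and clones, and 0 and 2 in the differences of the 4-cell to 8-cell and the last step. Median centring gave 0 at the IVF 4-cell to 8-cell step and 1 in the difference of the 8-cell to morula step.

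Leaving out 1 embryo gave 1 to 4, 1 to 2, 2 to 4, 1 to 5, 0 to 1 and 1 to 5 genes at the 6 stages between clones and IVF embryos. Of the 8 fits of each stage, 3, 6, 4, 3, 7 and 1 gave the lowest count. At the 1-cell stage these were the fits without IVF embryo 2 or clone 2 or 4, at the 4-cell stage without IVF embryo 2 or 3 or clone 1 or 3, at the 8-cell stage without any 1 of the IVF embryos, and in the blastocyst without clone 2. The 6 IVF steps gave 25 to 28, 25 to 30, 17 to 19, 0 to 1, 2 to 5 and 8 to 12 genes, and the 6 clone steps 16 to 19, 25 to 28, 22 to 25, 2 to 3, 11 to 14 and 17 to 20. Of 94 named calls at steps, 81 held in every such fit.

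In the mean of the probe sets Srsf6 turned to 0.37 at the 8-cell stage, Srsf1 to 1.92 and 1.52 from the oocyte to the IVF and clone 1-cell embryo and to 2.51 at the clone 1-cell to 2-cell step, and Srsf3 to -1.55 at that step and -1.10 in its difference. Hnrnpa2b1 turned to 0.0038 at the IVF 8-cell to morula step and -0.55 in the difference of the 1-cell to 2-cell step, and Srsf2 to -0.090 at the last clone step. Under quantile normalization Srsf3 turned to -2.50 and -2.14 at the 1-cell to 2-cell step of IVF embryos and clones. The cause was not tested. Signal over background was not judged, which limits the low values.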
